A study of Homo sapiens with 6 samples.

Results

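The genes described here carry the negative feedback of the RAS, MEK and ERK kinase pathway, together with ETS transcription factors and other transcripts that follow its activity. They were chosen by name as 10 genes, namely DUSP4, DUSP6, SPRY2, SPRY4, SPRED1, SPRED2, ETV1, ETV4, ETV5 and PHLDA1, and found in the count table by Entrez identifier. All 10 were among the 12703 genes of the count table, and the filter on low counts removed none of these 12703. Listed genes called measured below are those present in this table, and shares of all genes refer to it. RNA sequencing compared PC3 cells, an established human prostate cancer line from a bone metastasis, with and without GCNT1 overexpression. GCNT1 encodes a Golgi enzyme that builds the core 2 branch of O-glycans. Each group held 3 stable lines, transduced with lentiviral particles that carried either a GCNT1 open reading frame or a negative control, and each line gave 1 stranded mRNA library. Both groups therefore carried a lentiviral insert. The libraries were labelled as biological replicates, and the p-values given here measure the spread between these lines of a single parental cell line.

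When a growth factor binds its receptor, RAS and RAF activate MEK, which phosphorylates ERK, and ERK switches on transcripts that damp the same signal. The products of these feedback genes act at successive steps, since Sprouty and SPRED proteins restrain the passage from receptor to RAF and dual specificity phosphatases remove the activating phosphates of the MAP kinases. ETV1, ETV4 and ETV5 form the PEA3 group of ETS factors, whose genes rise with ERK activity and of which ETV1 and ETV4 are fusion partners in some prostate cancers.

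The total counts were 12755888, 12717300 and 12125672 in control libraries 1 to 3 and 11392213, 13411484 and 13825704 in GCNT1 overexpressing libraries 1 to 3. Levels are given as CPM, read counts scaled to library size with TMM factors. Pairs of libraries within a group gave chi-square values of 1.65 to 5.57 per degree of freedom, which set their differences against counting error only, and each library was counted as 1 sample. Control 3 and overexpressing library 1 stood apart from the rest. In both, the deviation from the group mean fell with exonic length across 8434 genes (r = -0.40 and -0.48), whereas r was between 0.13 and 0.40 in the other libraries. Genes are not independent replicates, and these r values describe the libraries. Overexpressing library 1 was also the lowest of its group for 7 of the 10 genes, so the fold changes of the 10 genes are given below with and without it.

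GCNT1 itself was counted 9, 13 and 8 times in the controls and 13, 16 and 35 times in the GCNT1 overexpressing cells. Its level was low in every library, and overexpressing library 3 lay well above the other two of its group. Whether transcripts of the lentiviral insert were counted on the GCNT1 gene is not known, which limits these counts as a check of the overexpression. In GENCODE the gene also overlaps PRUNE2, which had 5 to 25 counts and lies on the other strand. The strand setting of the counting was not given in the sources used here. The Log2FC of GCNT1 was 0.98 (95% interval 0.18 to 1.79, Benjamini-Hochberg adjusted p = 0.0362 by the quasi-likelihood test of edgeR). Without overexpressing library 3 it was 0.49 with an adjusted p of 0.269 in the same edgeR test, and over all alternatives but glmTreat, a test against an absolute Log2FC of 0.58, the adjusted p ran from 0.0110 to 0.269. With glmTreat of edgeR it was 0.396 after Benjamini-Hochberg adjustment. The call also failed without control 1 (0.91) and without control 3 (0.88). The PC3 label was checked against marker genes. KRT8, KRT18, KRT19, EPCAM, VIM and CD44 were all counted, and their summed level was 2399, 2510 and 2528 CPM in the controls and 2655, 2456 and 2527 CPM with overexpression. VIM was the most abundant of them, and the markers moved apart. KRT19 was lower past both thresholds (Log2FC -0.68). By the adjusted p alone KRT18 was lower (-0.18) and VIM was higher (0.30), and the other 3 did not pass. EPCAM added little to the sum, at 4.31 to 6.51 CPM in the controls and 5.75 to 6.10 CPM with overexpression. Among 12 markers of blood, endothelial and stromal cells, 3 were measured, with summed levels of 17.2, 20.2 and 18.8 CPM in the controls and 17.8, 15.1 and 16.1 CPM with overexpression. COL1A1 was the most abundant of them and was lower with overexpression (Log2FC -0.77), and ACTA2 had a Log2FC of 0.50 that did not pass. PECAM1 was higher (Log2FC 1.31), and stood at 1.43 to 1.95 CPM in the controls and 3.93 to 5.10 CPM with overexpression. The remaining 9 were not analysed here, and the part of these markers in the results was not tested.

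The 10 genes moved in both directions. Past both thresholds, an adjusted p of 0.05 and an absolute Log2FC of 0.58, DUSP6 was upregulated and ETV1 was downregulated, which is 2 of 10 genes (20%) beside 19.3% of all genes tested. By direction this is 1 gene higher beside 8.28% of all genes and 1 gene lower beside 11.1%. With the adjusted p alone, 7 of 10 genes passed (70%) beside 57.6% of all genes, and of these 4 were higher beside 28.3% and 3 were lower beside 29.3%. The levels of the groups did not overlap for 7 of the 10 genes, beside 62.5% of all genes. The median Log2FC of the 10 genes was 0.0066, against 0.00095 for all genes, and the median absolute Log2FC was 0.27 against 0.26. These shares and medians are close to those of the whole table, and what follows concerns the individual genes and the balance within each family. An exact permutation test of 3 against 3 libraries cannot go below 0.10, so the tests rest on the edgeR model, which pools the spread over all genes. In RNA from whole cultures, fewer cells with a transcript and less transcript in each cell cannot be told apart.

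**Figure D1:**
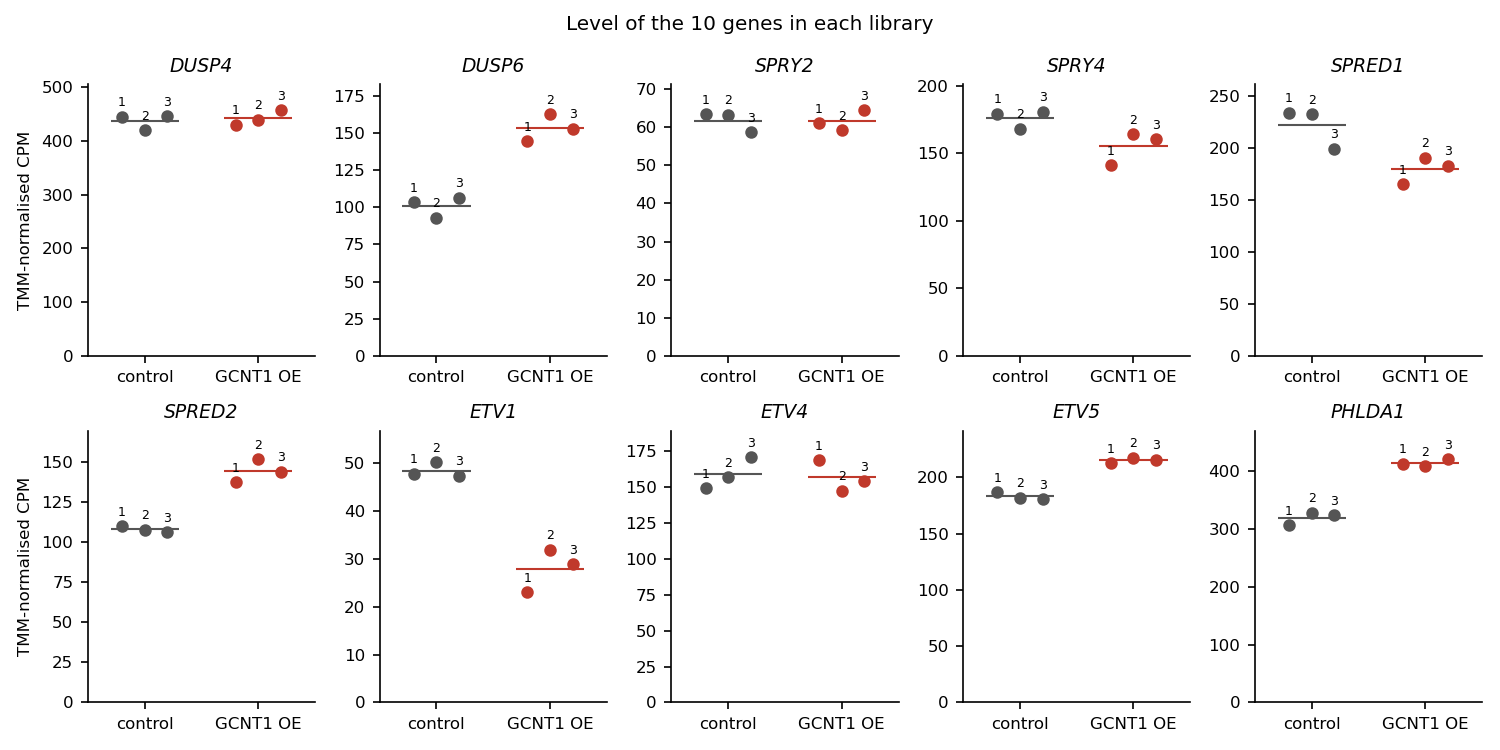
TMM-normalised CPM (vertical axes, from 0) of each of the 10 genes in the 3 control libraries (grey) and the 3 GCNT1 overexpressing libraries (red), numbered by replicate, with a line at each group mean. The groups overlap for DUSP4, SPRY2 and ETV4 and are separate for the other 7 genes.

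Of the dual specificity phosphatases, DUSP6 is the cytoplasmic enzyme selective for ERK. It had 103, 93.0 and 106 CPM in the controls and 144, 162 and 153 CPM in the GCNT1 overexpressing cells. Every overexpressing library was above every control, and the lowest overexpressing value was that of library 1. DUSP6 was upregulated 1.52-fold (Log2FC 0.60, SE 0.063, Benjamini-Hochberg adjusted p = 3.70e-06 by the quasi-likelihood test of edgeR). Its direction and adjusted p held in every fit with 1 library left out, but the Log2FC dropped under the fold minimum without control 2 (0.55) and without overexpressing library 2 (0.57). When the fold minimum was built into the test itself with edgeR's glmTreat, DUSP6 did not pass (Benjamini-Hochberg adjusted p = 0.885). DUSP4, a nuclear phosphatase that acts on ERK and also on the stress kinases, had the highest control level of the 10 genes per kb of exon. It was measured at 446, 420 and 446 CPM in the controls and 430, 439 and 458 CPM with overexpression. The groups overlapped, and the Log2FC was 0.02 with a 95% interval of -0.08 to 0.12.

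The family paralogues of the 10 genes were also read, and 9 of 13 were measured. DUSP5, the nuclear phosphatase selective for ERK, had 114, 117 and 123 CPM in the controls and 195, 186 and 165 CPM with overexpression. It was upregulated by a similar amount to DUSP6, with a Log2FC of 0.63 and a Benjamini-Hochberg adjusted p of 2.99e-06 from the same edgeR test, but it came just under the fold minimum without overexpressing library 1 (0.57) and relative to its 50 nearest genes (0.54). The scarce DUSP10, which prefers p38 and JNK, fell by 1.83 on the log2 scale from between 3.89 and 4.45 CPM to between 0.864 and 1.42 CPM. DUSP9, another phosphatase of ERK, fell by 1.33 on the log2 scale from between 2.37 and 2.73 CPM to between 0.728 and 1.56 CPM. DUSP16, a phosphatase of JNK and p38, rose by 0.35 on the log2 scale and passed the adjusted p alone. The Log2FC of DUSP1 was 0.16 and that of DUSP7 was 0.10, and neither passed. Per kb of exon, the 8 measured phosphatases summed to 157, 153 and 161 CPM in the controls and 198, 201 and 192 CPM with overexpression. The share of DUSP6 in this sum was 16.7% ± 0.781 (SD, n = 3) in the controls and 20.2% ± 1.11 (SD, n = 3) with overexpression. DUSP4 made up 38.4% ± 0.652 (SD, n = 3) and then 30.9% ± 1.59 (SD, n = 3), while DUSP5 went from 29.7% ± 0.894 (SD, n = 3) to 36.5% ± 2.57 (SD, n = 3). Per kb of exon, the order DUSP4, DUSP5, DUSP6 of the controls became DUSP5, DUSP4, DUSP6. In CPM without the exonic length, DUSP4 was above DUSP5 in every library. In overexpressing library 3, DUSP4 and DUSP5 lay close together at 32.8% and 33.8%.

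Sprouty proteins are inducible inhibitors that act between receptor tyrosine kinases and RAF. SPRY4 had 179, 168 and 181 CPM in the controls and 141, 164 and 160 CPM with overexpression. The groups did not overlap, although control 2 and overexpressing library 2 were close, and library 1 was the lowest. SPRY4 was lower by a small margin (Log2FC -0.18, Benjamini-Hochberg adjusted p = 0.0216) by the quasi-likelihood test of edgeR. The call of this small fall depended on single libraries and on the processing. With library size alone the Log2FC was -0.12, with a block on replicate number it was -0.18, and neither passed. Without overexpressing library 1 the Log2FC was -0.12 with an adjusted p of 0.0627 in the same edgeR test, and it also lost the call without control 1 (-0.16) and without control 3 (-0.16). It passed in 7 of 13 alternatives, leaving out glmTreat, the unfiltered fit that equals the one reported and the comparison with neighbouring genes given below, over which the edgeR, limma-voom and DESeq2 Benjamini-Hochberg adjusted p ran from 0.0156 to 0.106. SPRY2 was measured at 63.3, 63.3 and 58.6 CPM in the controls and 61.1, 59.2 and 64.4 CPM with overexpression. The groups overlapped, and the 95% interval of the Log2FC was -0.13 to 0.13. The paralogue SPRY1 rose by 0.41 on the log2 scale, from between 74.5 and 79.4 CPM to between 96.7 and 111 CPM, and passed the adjusted p alone. Together the 3 Sprouty genes summed to 65.6 ± 1.34 CPM per kb (SD, n = 3) in the controls and 68.9 ± 2.70 CPM per kb (SD, n = 3) with overexpression. SPRY1 held 29.8% ± 0.595 of this sum (SD, n = 3) in the controls and 37.8% ± 2.07 (SD, n = 3) with overexpression. SPRY4 went from 40.9% ± 0.935 (SD, n = 3) to 34.3% ± 1.56 (SD, n = 3), so that SPRY4 was the largest part in every control. With overexpression SPRY1 was the largest in libraries 1 and 2, and both stood level in library 3 at 35.4% and 35.5%. In CPM without the exonic length, SPRY4 was above SPRY1 in every library.

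SPRED1 and SPRED2 are membrane proteins that bring neurofibromin, the product of NF1, to RAS. SPRED1 had 234, 233 and 199 CPM in the controls and 165, 191 and 183 CPM with overexpression. The groups did not overlap, although control 3 was only slightly above overexpressing library 2. SPRED1 was downregulated, with a Log2FC of -0.31 (SE 0.069, Benjamini-Hochberg adjusted p = 0.00205 by the quasi-likelihood test of edgeR). SPRED2 moved the other way. It had 110, 108 and 106 CPM in the controls and 137, 152 and 144 CPM with overexpression, with a wide gap between the groups. SPRED2 was upregulated 1.34-fold (Log2FC 0.42, SE 0.053, Benjamini-Hochberg adjusted p = 1.87e-05 from the same edgeR test). The ratio of SPRED2 to SPRED1, both per kb of exon, was 0.661, 0.652 and 0.752 in the controls and 1.17, 1.12 and 1.11 with overexpression. Per kb of exon, SPRED1 was thus the more abundant of the pair in every control and SPRED2 in every overexpressing library. In CPM without the exonic length, SPRED1 was above SPRED2 in every library. The sum of SPRED1, SPRED2 and SPRED3 differed by less than the spread between replicates, at 50.9 ± 2.68 CPM per kb (SD, n = 3) in the controls and 51.8 ± 2.87 CPM per kb (SD, n = 3) with overexpression. SPRED3 made up only 4.26% to 5.91% of this sum, and its Log2FC of -0.13 did not pass the test. NF1 had a Log2FC of -0.20, which did not pass either. It was not among the genes picked by the naming rule and was read after its values were seen.

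Of the PEA3 group, ETV1 had 47.8, 50.3 and 47.5 CPM in the controls and 23.1, 32.0 and 28.9 CPM with overexpression. The controls lay close together, every overexpressing library was below them, and library 1 was the lowest. The level of ETV1 fell by 0.79 on the log2 scale (SE 0.095, Benjamini-Hochberg adjusted p = 1.24e-05 by the quasi-likelihood test of edgeR), and this was the largest change of the 10 genes. Without overexpressing library 1 it fell by 0.67 on the log2 scale, and it was past both thresholds in all 6 fits with 1 library left out. With edgeR's glmTreat the Benjamini-Hochberg adjusted p was 0.0550, so ETV1 did not pass when the fold minimum was part of the test. ETV5 was measured at 187, 182 and 181 CPM in the controls and 212, 217 and 216 CPM with overexpression. Both groups were tight and separate, with a Log2FC of 0.23 and a Benjamini-Hochberg adjusted p of 6.00e-04 from the same edgeR test. ETV4 had 149, 157 and 171 CPM in the controls and 169, 147 and 154 CPM with overexpression. Its groups overlapped, and control 3 and overexpressing library 1 gave the highest values of their groups. The 95% interval of its Log2FC was -0.16 to 0.12. Per kb of exon the PEA3 genes summed to 82.1 ± 2.55 CPM (SD, n = 3) in the controls and 84.8 ± 2.21 CPM (SD, n = 3) with overexpression. ETV1 was the smallest part and went from 6.17% ± 0.310 (SD, n = 3) to 3.45% ± 0.640 (SD, n = 3) of the sum. ETV4 held 55.1% ± 2.03 (SD, n = 3) and then 52.6% ± 2.28 (SD, n = 3), and ETV5 held 38.7% ± 1.82 (SD, n = 3) and then 42.2%, 45.4% and 44.3% in overexpressing libraries 1 to 3. The fall of ETV1 therefore concerned the least abundant factor of the group. Per kb of exon the order ETV4, ETV5, ETV1 was the same in all 6 libraries. In CPM without the exonic length, ETV5 was above ETV4 in every library.

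PHLDA1 encodes a pleckstrin homology-like protein whose transcript rises quickly with ERK activity. It was measured at 307, 328 and 324 CPM in the controls and 413, 409 and 421 CPM with overexpression. The overexpressing libraries lay within a narrow range well above the controls. PHLDA1 was upregulated 1.30-fold (Log2FC 0.38, SE 0.044, Benjamini-Hochberg adjusted p = 1.00e-05 by the quasi-likelihood test of edgeR). Its paralogue PHLDA3, a p53 target, had a Log2FC of -0.16 that did not pass.

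**Figure D2:**
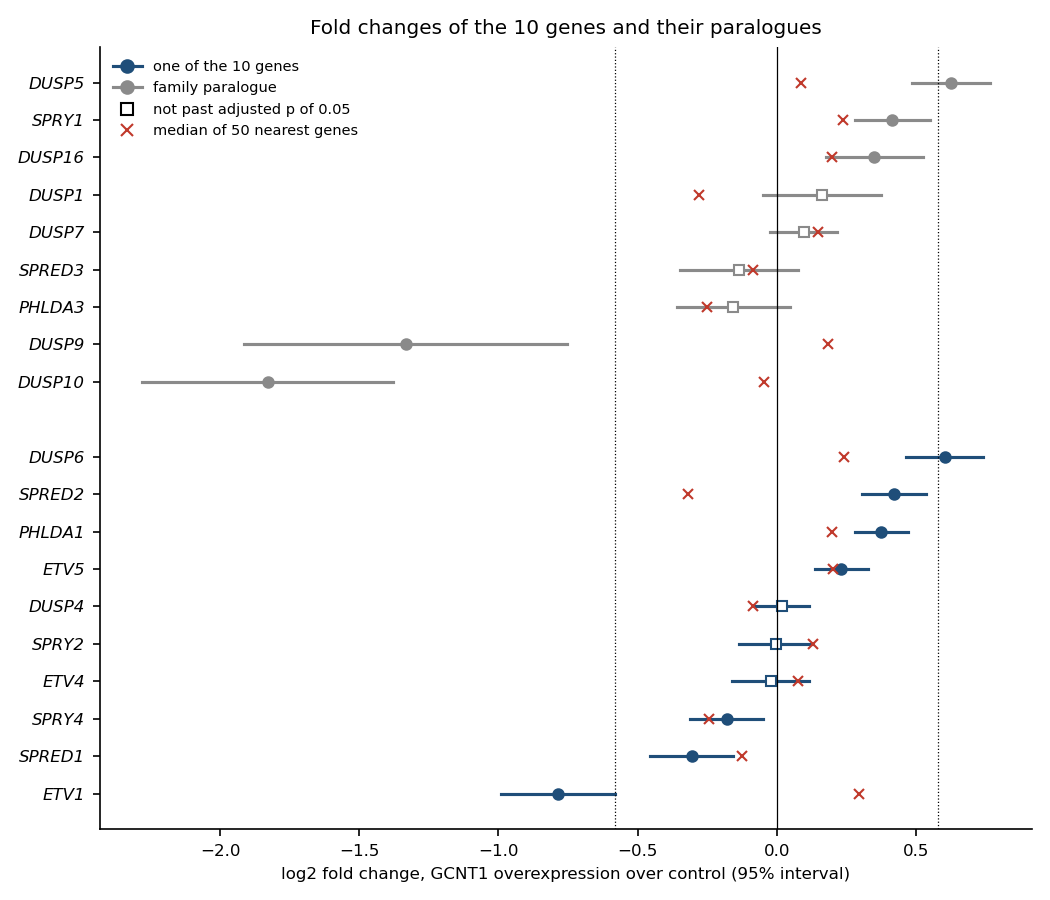
Log2FC of GCNT1 overexpression over control (horizontal axis) with 95% intervals for the 10 genes (blue) and their 9 measured paralogues (grey), where open squares did not pass an adjusted p of 0.05, crosses give the median of the 50 nearest genes and dotted lines mark 0.58 in each direction. SPRED2 and ETV1 lie on the other side of 0 from their neighbours, while ETV5 and SPRY4 lie close to theirs.

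Compared per kb of exon in the controls, the order of the 10 genes was DUSP4 (60.1 CPM per kb), PHLDA1 (54.0), ETV4 (45.3), ETV5 (31.7), SPRED1 (28.6), SPRY4 (26.8), DUSP6 (26.2), SPRED2 (19.6), SPRY2 (19.2) and ETV1 (5.06). SPRED1, SPRY4 and DUSP6 differed by less than their spread over replicates, as did SPRED2 and SPRY2. In the overexpressing cells PHLDA1 stood at 70.1 CPM per kb, above DUSP4 at 60.8, and DUSP6 rose to 39.7, above ETV5 at 37.3. SPRED1 and SPRY4 then stood at 23.2 and 23.7 CPM per kb, below SPRED2 at 26.2. These changes of order depend on the exonic lengths. In mean CPM of the overexpressing cells, DUSP4 was above PHLDA1, ETV5 above DUSP6, and SPRED1 and SPRY4 above SPRED2.

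The neighbourhood of each gene on its chromosome differed as well. The 50 genes nearest to DUSP6 on chromosome 12 had a median Log2FC of 0.24, and relative to it the Log2FC of DUSP6 was 0.36, under the fold minimum. PHLDA1, on the same chromosome, had a local median of 0.20 and a difference from it of 0.18. For ETV5 on chromosome 3 the local median was 0.20, so that its own rise exceeded that of its neighbours by only 0.03. SPRY4 on chromosome 5 lay among genes with a local median of -0.24, and relative to them its value was 0.06. In contrast, ETV1 on chromosome 7 fell among neighbours with a median of 0.30, a difference of -1.08, and SPRED2 on chromosome 2 rose among neighbours with a median of -0.32, a difference of 0.74. SPRED1 on chromosome 15 had a local median of -0.12 and a difference of -0.18. The part of regional shifts in these changes was not tested.

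Several of the 10 genes also overlap others. ETV4 overlaps DHX8 on the opposite strand, ETV5 overlaps DGKG on the same strand, and antisense transcripts overlap DUSP6, SPRY4, ETV5 and PHLDA1. A long noncoding RNA overlaps SPRED2 on the same strand. DHX8 had a Log2FC of -0.06 and did not pass, and DGKG, at 1.99 to 6.43 CPM, was far below ETV5 and moved the other way, past both thresholds with a Log2FC of -0.62. Without strand, reads of the opposite-strand pairs cannot be told apart, and strand does not separate the same-strand pairs of ETV5 and SPRED2.

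DUSP6 and ETV1 changed in opposite directions past both thresholds, and the 250 bases before their most upstream RefSeq start are shown because the PEA3 factors and other ETS proteins bind a GGAA core. The DUSP6 window is chr12:89352502-89352751 and the ETV1 window is chr7:13991426-13991675, both on the minus strand of GRCh38.p14. Capitals mark GGAA or, for the other strand, TTCC.
DUSP6: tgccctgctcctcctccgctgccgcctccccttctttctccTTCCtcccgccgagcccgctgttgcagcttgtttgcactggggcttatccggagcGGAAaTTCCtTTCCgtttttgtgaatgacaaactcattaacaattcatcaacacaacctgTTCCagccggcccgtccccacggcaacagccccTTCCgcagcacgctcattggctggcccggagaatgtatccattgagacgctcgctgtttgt
ETV1: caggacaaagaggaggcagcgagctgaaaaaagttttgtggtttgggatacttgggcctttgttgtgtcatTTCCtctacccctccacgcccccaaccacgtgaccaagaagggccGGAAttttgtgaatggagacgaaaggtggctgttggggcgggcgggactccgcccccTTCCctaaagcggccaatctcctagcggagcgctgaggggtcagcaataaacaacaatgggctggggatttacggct
The DUSP6 window held 6 matches, 3 of them close together, and the ETV1 window held 3. The median over the windows of 27305 genes was 3 (quartiles 2 and 4), and 92.8% of all windows held at least 1 match. Windows were matched for 7 of the 10 genes, all but DUSP4, ETV4 and ETV5. The others held 4 matches in SPRED2 and PHLDA1, 3 in SPRY2 and SPRED1 and 2 in SPRY4. The SPRY4 window, chr5:142324248-142324497 on the minus strand, lies inside the span of the gene, whose upstream end is 142325021. Its count is therefore not directly comparable with the others. The longer core CCGGAA, which includes GGAA, was searched on both strands and is found in 14.8% of all windows. It was present in ETV1, SPRY2 and PHLDA1 and not in the other 4. The octamers TGAATGAA and TCAATGAA are bound by the repressor CIC, which silences PEA3 genes when ERK is inactive. They occurred on either strand in 2.10% of all windows and in 0 of these 7. Other forms of the CIC site were not searched, so whether these windows hold a CIC site of another form was not tested. A match is a run of letters and does not show binding.

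The genes with the most similar pattern were named by the smallest Euclidean distance between centred log2 CPM values over the 6 libraries. For DUSP6 they were ZNF23 (distance 0.057), BBS4 (0.077) and ADPGK (0.10), with Log2FC values of 0.57, 0.64 and 0.56. For ETV1 they were GRPR (0.076), CEP68 (0.14) and RTKN2 (0.14), with Log2FC values of -0.80, -0.81 and -0.87. None of them belongs to the 10 genes or their paralogues.

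The rest of the pathway was read from lists ordered by role. In total 111 of 142 listed genes were measured, and 31 of them (27.9%) passed both thresholds, beside 19.3% of all genes, with 18 higher and 13 lower. For the lists that follow, the shares of all genes past both thresholds were 8.28% higher and 11.1% lower. Among 13 growth factor ligands 7 were higher and 2 were lower, with a median Log2FC of 0.68 against 0.00095 for all genes. PDGFB rose by 2.58 on the log2 scale, from between 7.79 and 8.11 CPM to between 42.5 and 53.2 CPM, and FGF5 and TGFA rose by 0.90 and 0.92. Ligands of the EGF receptor moved in both directions, since BTC and AREG fell by 0.95 and 0.64 on the log2 scale while TGFA, EGF (0.93) and EREG (0.86) were higher. EGF and EREG fall outside the naming rule and were read after their values were seen. Of 11 receptors, 2 were higher and 2 were lower. The VEGF receptor gene FLT1 had 2.46, 2.89 and 2.54 CPM in the controls and 119, 125 and 119 CPM with overexpression, a Log2FC of 5.52, and FGFRL1, a receptor without a kinase domain, had 1.51. The FGF receptors FGFR1 and FGFR4, upstream of the same feedback genes, fell by 0.77 and 0.63 on the log2 scale. With 1 library left out, FGFR4 came just under the fold minimum without control 3 (-0.57) and without overexpressing library 3 (-0.56), and AREG did so without the latter (-0.58 after rounding).

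The next lists cover the steps between receptor and ERK. Among 10 adaptors and exchange factors, the adaptor SHC1 fell by 0.61 and the scarce exchange factor RASGRP3 by 1.65 on the log2 scale, and no gene was past both thresholds in the other direction, while by the adjusted p alone 2 were higher and 5 were lower, beside 28.3% and 29.3% of all genes. The number past both thresholds rose from 2 to 4 without control 3 and also without overexpressing library 2. With library size alone the Log2FC of SHC1 was -0.55, under the fold minimum. Of 17 genes of the RAS, RAF, MEK and ERK cascade, 1 passed, the scaffold gene CNKSR1, with a Log2FC of 3.08 from between 1.35 and 2.09 CPM to between 12.6 and 14.9 CPM. The list median was -0.09, and with the adjusted p alone 3 were higher and 7 were lower, against the same shares of all genes. Past both thresholds, 3 cascade genes were counted without overexpressing library 2, and 2 without control 1 or without control 3. Beside the SPRY and SPRED genes, 13 further inhibitors of the pathway were measured. By edgeR 0 passed both thresholds, as by limma-voom and by DESeq2, 8 had an unadjusted p under 0.05, beside 62.3% of all genes, and 7 of 13 (53.8%) passed the adjusted p alone, beside 57.6%, with 4 higher and 3 lower. The RAS GTPase activating gene DAB2IP had the smallest p, with a Log2FC of 0.33.

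Downstream, 18 other transcripts known to rise with ERK activity were measured, 6 higher and 3 lower past both thresholds, with a median Log2FC of 0.34. By the adjusted p alone 11 were higher, beside 28.3% of all genes, and 5 were lower, beside 29.3%. MYC rose by 1.04, UPP1 by 1.01 and TFPI2 by 0.90 on the log2 scale, while LIF fell by 0.79, MMP1 by 0.61 and the scarce EPHA4 by 3.93. MMP1 came under the fold minimum without control 1 (-0.55), without overexpressing library 3 (-0.57) and with library size alone (-0.55). Among 16 other ETS factors, ELF1 rose by 0.69, and SPDEF, a factor of luminal epithelium, fell by 3.15, with ELF3 falling by 0.73 and FLI1 by 0.69 on the log2 scale. FLI1, at 1.47 to 3.38 CPM, no longer passed without control 3 (-0.52) or under DESeq2 (-0.70). The regulators of the PEA3 genes and proteins showed no shared direction, with a median Log2FC of -0.0013 over 13 genes. Past both thresholds 1 was higher and 1 was lower, and this total of 2 became 3 without control 1, without control 3 or without overexpressing library 3. The pseudokinase gene TRIB3 rose by 0.82 and TRIB2 fell by 1.30 on the log2 scale, whereas the repressor gene CIC, read after its values were seen as the factor that binds the octamers, had a Log2FC of 0.01. Relative to the median of their 50 nearest genes, 6 of the list genes named here came under the fold minimum, namely FGFR4 (-0.26), SHC1 (-0.56), LIF (-0.54), MMP1 (-0.34), ELF1 (0.48) and FLI1 (-0.33). With library size alone FGFR4 (-0.57) did so as well.

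**Figure D3:**
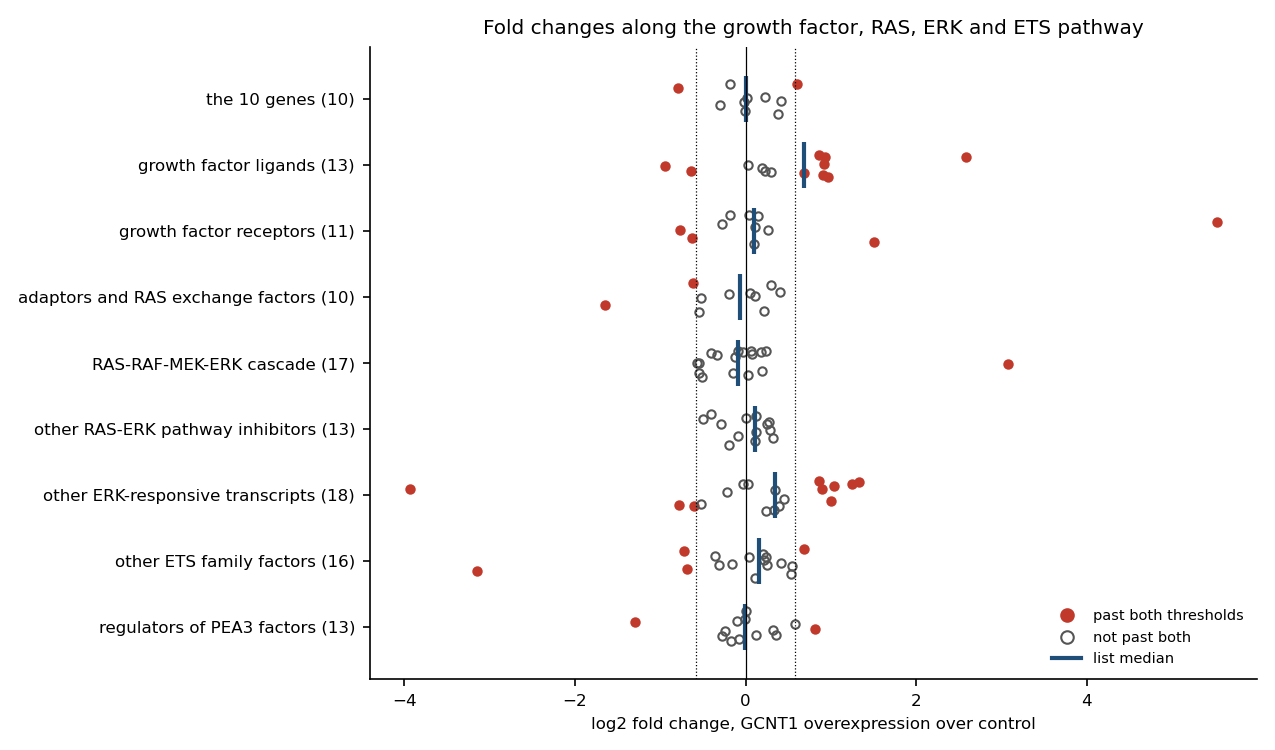
Log2FC of GCNT1 overexpression over control (horizontal axis) for the 10 genes and for each pathway list, with the number of measured genes in brackets, filled red points for genes past both thresholds, open points for the others and a blue bar at the median. The median of the ligands is 0.68, and the 10 genes are spread on both sides of 0.

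Leaving out control 3 and overexpressing library 1 together, an alternative chosen after seeing the data, gave a Log2FC of 0.68 for DUSP6, 0.44 for SPRED2, 0.39 for PHLDA1, 0.23 for ETV5, -0.10 for SPRY4, -0.32 for SPRED1 and -0.69 for ETV1. The same 2 genes, DUSP6 and ETV1, were past both thresholds, and SPRY4 no longer passed the adjusted p. Of the pathway list genes 32 passed both thresholds in that fit, beside 31 with all libraries. Without overexpressing library 1 alone the values were 0.64 for DUSP6, 0.45 for SPRED2, 0.38 for PHLDA1, 0.24 for ETV5 and -0.25 for SPRED1. In the same fit the genes that did not pass had values of 0.04 for DUSP4, 0.0011 for SPRY2, -0.08 for ETV4 and -0.12 for SPRY4. The changes of SPRED1 and SPRED2 were therefore about as large without these libraries. Protein levels and ERK phosphorylation were not analysed here.

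**Figure D4:**
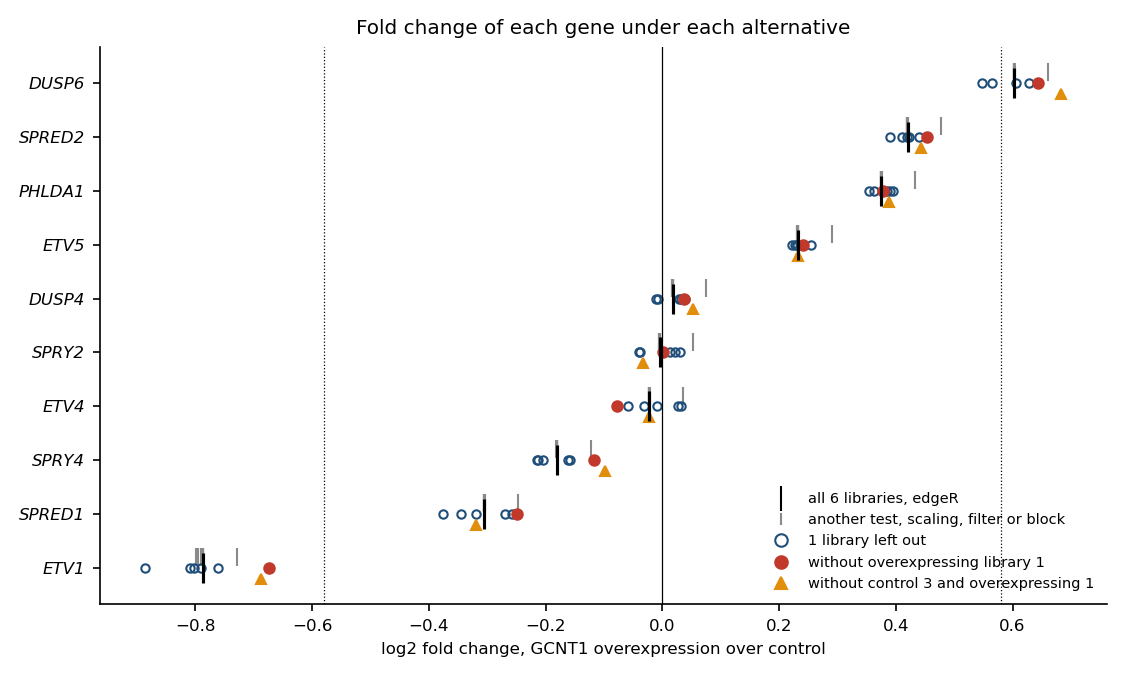
Log2FC of GCNT1 overexpression over control (horizontal axis) of each of the 10 genes with all 6 libraries (black bar), with other tests, scalings, filters or a replicate block (grey bars), with 1 library left out (circles, red without overexpressing library 1) and with 2 libraries left out (triangles). DUSP4, SPRY2 and ETV4 have values on both sides of 0, and the other 7 genes keep 1 direction.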

How the data were processed

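The values deposited by the authors were raw read counts of genes in 6 libraries, made by trimming with Cutadapt, mapping to hg38 with HISAT2 and counting with featureCounts in Galaxy; the annotation and strand setting were not given in the sources used here. Counts were fitted in R 4.3.3 with edgeR 4.0.16 (filterByExpr, which kept all 12703 genes, TMM, quasi-likelihood test of the 2 groups, Benjamini-Hochberg adjustment over all genes). The thresholds were 0.05 for the adjusted p and 0.58 for the absolute Log2FC. The common biological coefficient of variation was 0.0515. Alternatives used limma 3.58.1 (limma-voom), DESeq2 1.42.0, glmTreat, RLE factors, library size alone, no filter, at least 10 counts in every library, a replicate block, each library left out, 2 libraries left out, and Log2FC relative to the median of the 50 nearest genes. The scripts were tested on simulated data. Symbols came from RefSeq (12661 genes matched), and exonic lengths and overlaps from GENCODE 44.

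Named genes were GCNT1, the 10 genes, their measured paralogues, up to 3 genes with the smallest p in each direction among those past both thresholds in every pathway list (or the 1 gene with the smallest p), and the 3 genes most similar to DUSP6 and to ETV1. The members and lists were chosen with earlier results of these data known. The fit without 2 libraries and the alternatives for the list counts were chosen after seeing the data. Part of the marker check is not reported here.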

Additional observations from a re-analysis of the deposited data

How the results depend on the processing

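Across other tests, scalings, filters and left-out libraries, 6 of the 7 genes past the adjusted p kept their direction and passed, except under glmTreat. SPRY4 is the exception, and relative to its 50 nearest genes its value turned to 0.0642. Under glmTreat 1392 genes passed instead of 2457, 0 of the 10 genes instead of 2 (1 at an unadjusted p under 0.05; 2 by limma-voom and by DESeq2), and 20 pathway list genes instead of 31, since that test asks for a change beyond 0.58. With 1 library left out in turn, 1 to 2 of the 10 genes passed both thresholds. GCNT1 ranged from 0.49 to 1.21 with 1 library left out, and it did not pass under DESeq2 (0.98, Benjamini-Hochberg adjusted p = 0.0821) or edgeR's glmTreat (0.98, adjusted p = 0.396). The genes that did not pass changed sign. DUSP4 ranged from -0.0109 to 0.0389, ETV4 from -0.0771 to 0.0315 and SPRY2 from -0.0398 to 0.0303 with 1 library left out, and with library size alone ETV4 was 0.0357 and SPRY2 0.0533. That scaling moved the median of all genes to 0.059. The cause of the other changes was not tested.

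The deviations showed no pairing by replicate number. Those of same-numbered libraries correlated at -0.586, 0.0979 and -0.361 across genes, and no library correlated best with its own number. Control 3 and overexpressing library 1, which both fell with exonic length, correlated at 0.635. A pairing weaker than such differences between libraries could be hidden, so these values cannot settle whether the numbers pair the libraries. With the replicate block 2423 genes passed, 2 of the 10 genes among them, and SPRY4 was -0.18 (edgeR, Benjamini-Hochberg adjusted p = 0.0514).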
